A study of Lachancea kluyveri with 31 samples.

Results

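In the yeast Lachancea kluyveri, 52 of 5283 genes were higher at low than at high iron both in wild-type (WT) cells and in cells without AFT1, and lay outside the iron-uptake-related set that the study singled out. They were chosen on the authors' log2 table, reading each gene through its probe with the higher mean over all arrays. The low-iron mean had to exceed the high-iron mean by at least a 1.5-fold change in WT and by more than 0.2 on the log2 scale in the aft1 deletion, and 29 iron-uptake-related genes were left out, 27 of which had a usable probe. The WT and aft1 arrays therefore chose the genes, and their values are given as a description only. The sef1 and sef1aft1 arrays took no part in either threshold, and every test compares groups of those arrays. They did enter the mean over all arrays that picked each probe. In the main fit, the spread behind each SE and p-value was estimated over all arrays, WT and aft1 included. The tests are therefore not fully independent of the choice of genes.

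In Saccharomyces cerevisiae, Aft1 is the activator that switches on genes of iron uptake when iron is scarce. In Candida albicans, Sef1, a zinc cluster transcription factor, activates iron uptake genes. Yeasts short of iron also alter their metabolism, since many enzymes of respiration and of amino acid and lipid synthesis carry iron-sulfur clusters or haem.

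The study compared 8 groups on 31 one-colour Agilent arrays. The strains were sef1aft1 (SkSef1KAft1HA1, sef1 replaced by KanMX6 and aft1 by HphMX4, built in the sef1 strain), aft1 (SkAft1KA22, aft1 replaced by KanMX6), sef1 (SkSef1KA1, sef1 replaced by KanMX6) and WT (JYL1897), all MATa and ura3, and each mutant was a single clone. Low-iron cells grew in YPD with 200 µM of the iron chelator bathophenanthroline disulfonate (BPS), and high-iron cells in YPD with 400 µM ferrous iron, for 5.5 h at 30 °C (the sample labels write mM for both doses, the methods µM). Every group had 4 arrays, except sef1 at high iron, which had 3. A level below is the log2 processed signal of a probe minus the log2 75th percentile of its array, and a change is a low-iron mean minus a high-iron mean on that scale, with its standard error (SE) from limma.

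The 4 strains were hybridised on 4 slides, so that strain and slide cannot be told apart. On each slide the low-iron arrays took one row and the high-iron arrays another, so that iron and row cannot be told apart either. The 3 mutant slides shared a scan session and the WT slide had its own. Between 97.8% and 99.7% of gene spots were well above background on each array. The SEF1 probe averaged -6.65 at low iron and -6.55 at high iron in sef1aft1, -7.00 and -7.30 in sef1, -2.04 and -2.08 in aft1, and -2.05 and -1.99 in WT. The AFT1 probe averaged -3.50 and -3.24 in sef1aft1, -4.80 and -4.73 in aft1, -0.86 and -2.69 in sef1, and -0.87 and -2.17 in WT. Each deleted gene thus had a lower mean in the strains without it than in the others at the same iron. Genes of chromosome A as a whole were higher on the aft1 arrays than on the WT arrays at high iron (median difference 0.80). SAKL0A03696g, SPG5 and TDP1 lie on that chromosome, and its part in their values was not tested.

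Of the 52 genes, 28 had an S. cerevisiae ortholog name in the study's tables and 24 had none. The named ones include regulators and transporters of sugar use, enzymes of amino acid breakdown, stationary-phase genes, vacuolar and membrane proteins and enzymes of lipid metabolism. The others go by their systematic name, whose letter after SAKL0 is the chromosome. The changes that chose the genes ran between 0.207 and 2.05 in aft1 and between 0.599 and 3.10 in WT. Just inside the aft1 threshold lay SPG5 (0.207), ASH1 (0.212) and SAKL0F16324g (0.217), and just outside it YLR149C (0.198), KTR1 (0.179) and YOR389W (0.172). Just inside the WT threshold lay ADR1 (0.599), SAKL0E09086g (0.614) and FYV10 (0.618), and just outside it SAKL0B02684g (0.583), SAKL0D00198g (0.572) and LPL1 (0.568).

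On the arrays that took no part in the thresholds, 29 of the 52 genes rose at low iron in sef1aft1 and 26 rose in sef1. A gene was called when its limma p, adjusted over all genes tested, was at most 0.05 and its fold change at least 1.5. Of all 5283 genes, 7.02% were called higher in sef1aft1 and 3.2% in sef1. INO1 was the only member that fell in sef1aft1 and SAKL0H02838g the only one that fell in sef1, where 7.5% and 2.56% of all genes fell. The median change over the members was 0.70 in sef1aft1 and 0.65 in sef1, beside -0.060 and -0.0046 over all genes.

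Of the members, 20 rose in both sef1aft1 and sef1 (1.46% of all genes did), 9 were called in sef1aft1 and not in sef1, 6 in sef1 and not in sef1aft1, and 17 in neither. Every low-iron array lay above every high-iron array for 31 members in sef1aft1 and for 30 in sef1, beside 13.6% and 14.1% of all genes. The same held for 13% of all genes in aft1 and 9.71% in WT. Every low-iron array lay below every high-iron array for INO1 and RAD61 in sef1aft1 and for SAKL0H02838g in sef1, as for 18.8% and 15.5% of all genes. In 0.871% of all genes the low-iron arrays lay above without overlap in all 4 strains. The rule had chosen the members for a rise in WT and aft1, so separation in these 2 strains was favoured beforehand. That share is therefore no measure for the members. As a description only, the same was seen in 14 members. They were ATG22, MOH1, YLR312C, MRH1, ISF1, TMT1, CRG1, SPG5, AUS1, ARO9, YOR020W-A, SAKL0F05632g, SAKL0F16500g and SAKL0E14960g. Another 78 genes passed the WT threshold but not the aft1 one. Of these, 24 were called higher in sef1aft1 and 29 in sef1, with median changes of 0.30 and 0.49. Among the 27 genes tied to iron uptake, 7 were called higher in sef1aft1 and 24 in sef1, with medians of 0.11 and 1.99. The differences between these groups of genes were not tested.

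**Figure D1:**
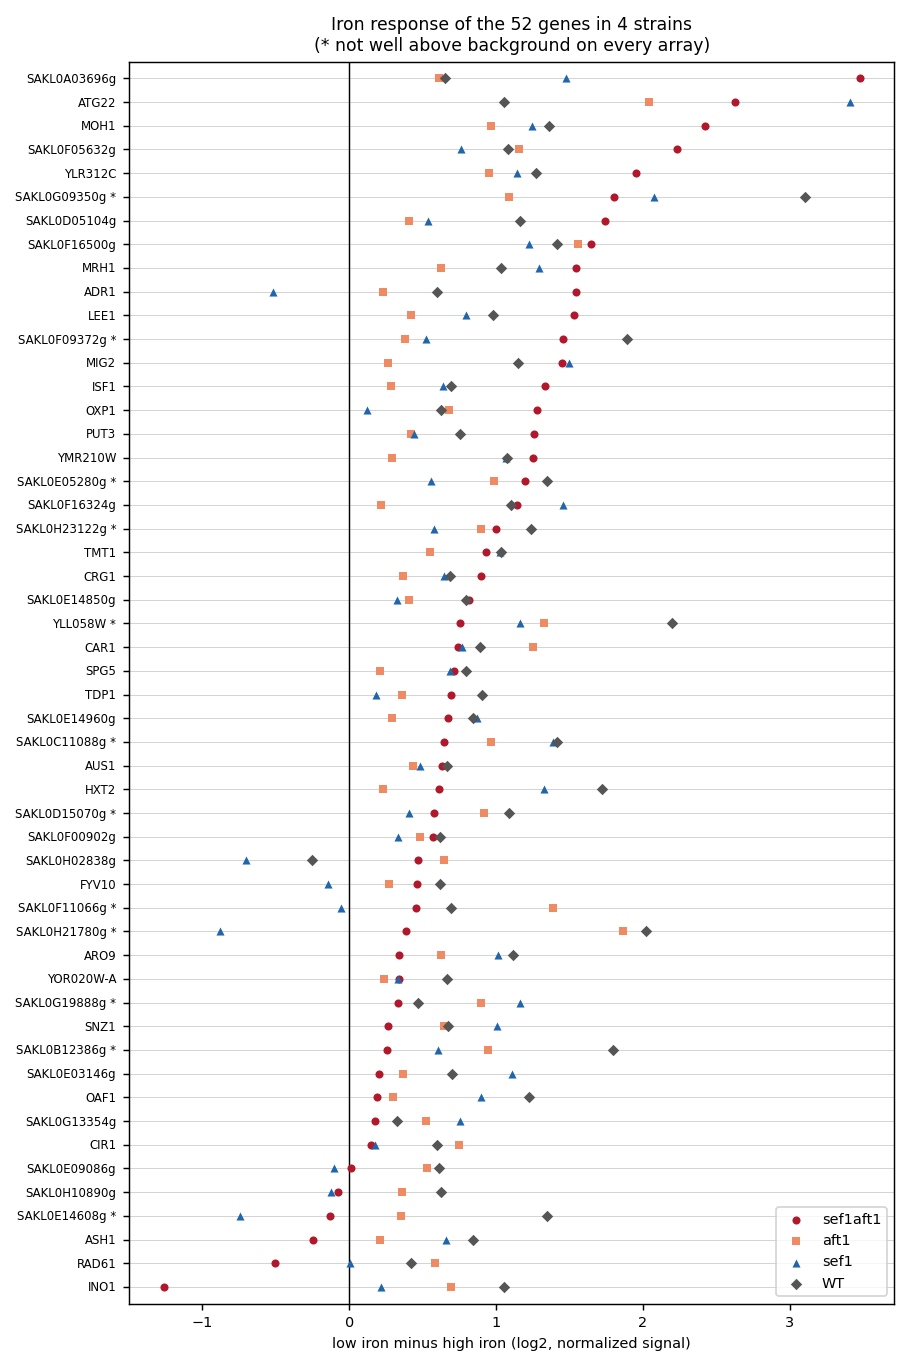
Low-iron mean minus high-iron mean (log2) of each of the 52 genes in sef1aft1, aft1, sef1 and WT, ordered by the change in sef1aft1. The sef1aft1 changes run between 3.48 for SAKL0A03696g and -1.26 for INO1, and 47 of the 52 lie above 0.

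The largest change in sef1aft1 belonged to SAKL0A03696g, a gene with no ortholog named in the tables. Its level was -0.66, -0.77, -0.53 and 0.15 on the sef1aft1 low-iron arrays, against -3.61, -3.97, -3.6 and -4.53 on the high-iron arrays. In sef1 it was -2.97, -3.01, -2.88 and -3.22 at low iron, against -4.42, -4.52 and -4.54 at high iron. The groups did not overlap in either strain. In aft1 it was -2.88, -2.89, -3.39 and -3.8, against -3.74, -3.76, -4.02 and -3.88, and in WT -3.3, -2.92, -2.85 and -2.59, against -3.57, -3.74, -3.57 and -3.38, so that the low-iron arrays of sef1aft1 stood above all others. It rose by 3.48 ± 0.20 in sef1aft1 (11.1-fold, limma adjusted p = 1.54e-14) and by 1.47 ± 0.21 in sef1 (adjusted p = 7.15e-06). The difference between these responses was 2.0 ± 0.29 (adjusted p = 7.87e-06). The aft1 groups overlapped. SAKL0A03696g missed the rule without WT low-iron replicate 4. In the authors' table its other probe gave 0.55 in WT, under the WT threshold, and 0.65 in aft1.

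SAKL0F05632g and SAKL0D05104g, also without a named ortholog, likewise changed more in sef1aft1 than in sef1. SAKL0F05632g read -1.04, -1.53, -1.2 and -0.79 at low iron in sef1aft1, against -3.39, -3.04, -3.39 and -3.68 at high iron, and in sef1 -2.6, -2.98, -2.51 and -2.81, against -3.7, -3.42 and -3.33. Neither strain overlapped, and the low-iron arrays of sef1aft1 were the highest. It rose by 2.24 ± 0.18 in sef1aft1 and 0.76 ± 0.20 in sef1 (difference 1.48 ± 0.27, limma adjusted p = 0.000172), and its call in sef1 was lost without high-iron replicate 1 (0.65). In aft1 it read -3.21, -3.83, -3.12 and -3.51, against -4.66, -4.63, -4.46 and -4.54, and in WT -2.61, -2.13, -2.14 and -1.67, against -3.58, -3.33, -3.22 and -2.75. 

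SAKL0D05104g read -3.12, -3.2, -3.37 and -3.78 at low iron in sef1aft1, against -5.2, -4.89, -4.84 and -5.5 at high iron. In sef1, where 1 low-iron spot that the scanner software marked as non-uniform was left out, it read -4.51, -5.15 and -4.42, against -5.49, -5.06 and -5.14, with the groups overlapping. It rose by 1.74 ± 0.21 in sef1aft1 and its change of 0.54 ± 0.24 in sef1 was not called (difference 1.2 ± 0.32, limma adjusted p = 0.00653). The other probe of the gene gave 1.63 in sef1aft1 and -0.45 in sef1, the second not called and of opposite sign. In WT that probe gave 0.23 in the authors' table, under the WT threshold. On the aft1 arrays it stood at -5.17, -5.61, -5.06 and -5.11, against -5.71, -5.56, -5.47 and -5.86, and in WT -4.19, -4.21 and -5.38 on 3 arrays, against -5.87, -5.57, -5.92 and -5.67.

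Of the genes for sugar use, MIG2 and HXT2 rose in both strains and ADR1 rose in sef1aft1. In S. cerevisiae, Mig2 is a zinc finger repressor acting when glucose is plentiful, Hxt2 is a high-affinity glucose transporter, and Adr1 activates genes for growth on ethanol, glycerol and fatty acids. MIG2 read -0.55, -1.09, -0.29 and -0.65 at low iron in sef1aft1, against -2.26, -2.13, -1.79 and -2.21 at high iron. In sef1 it read -0.72, -0.92, -1.21 and -1.24, against -2.7, -2.52 and -2.35. Its groups were apart in both strains. It rose by 1.45 ± 0.16 in sef1aft1 and 1.5 ± 0.17 in sef1, with a difference of -0.050 ± 0.23 that was not called (limma adjusted p = 0.893). In the authors' table, the changes that chose it were 0.27 in aft1 and 1.03 in WT.

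HXT2 rose less in sef1aft1 than in sef1. Its levels in sef1aft1 were 2.3, 2.34, 2.2 and 2.78 at low iron, against 1.9, 1.84, 1.7 and 1.73 at high iron. In sef1 they were 1.93, 1.8, 2.17 and 1.79 at low iron, against 0.65, 0.56 and 0.58 at high iron. In both strains the groups were apart, and the strains lay further from each other at high iron (1.20, limma adjusted p = 6.82e-07) than at low iron (0.48, adjusted p = 0.00464). The rise was 0.61 ± 0.14 in sef1aft1 and 1.33 ± 0.15 in sef1 (difference -0.72 ± 0.20, adjusted p = 0.01). In aft1 HXT2 read 3.17, 3.31, 3.18 and 3.64, against 3.04, 3.16, 2.91 and 3.29, and in WT 1.28, 1.8, 1.87 and 1.21, against -0.2, -0.38, 0.0026 and -0.17, and the WT high-iron arrays were the lowest of all groups. Its rise in sef1aft1 fell under the required fold without low-iron replicate 4 (0.49) or high-iron replicate 3 (0.58), and on the other probe of the gene the difference of -0.58 was not called (adjusted p = 0.219).

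ADR1 rose in sef1aft1, while in sef1 its low-iron mean was below its high-iron mean without being called. Its levels in sef1aft1 were 0.076, -0.46, -0.2 and -0.7 at low iron, against -1.57, -1.56, -1.88 and -2.44 at high iron. In sef1 they were -1.52, -1.74, -2.72 and -2.89, against -1.44, -1.72 and -1.94. The sef1aft1 groups were apart and those of sef1 overlapped. The change was 1.54 ± 0.25 in sef1aft1 (2.92-fold, limma adjusted p = 8.73e-06) and -0.52 ± 0.27 in sef1 (adjusted p = 0.197), and the difference of 2.06 ± 0.36 was the largest of all members (adjusted p = 9.78e-05). Its level in aft1 was -1.71, -2.15, -2.17 and -2.24, against -2.06, -2.22, -2.46 and -2.44, and in WT -0.56, -0.78, -0.71 and -1.46, against -1.27, -1.18, -1.69 and -1.77, with both pairs overlapping. ADR1 missed the rule when any of 8 of the 16 WT and aft1 arrays was left out.

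**Figure D2:**
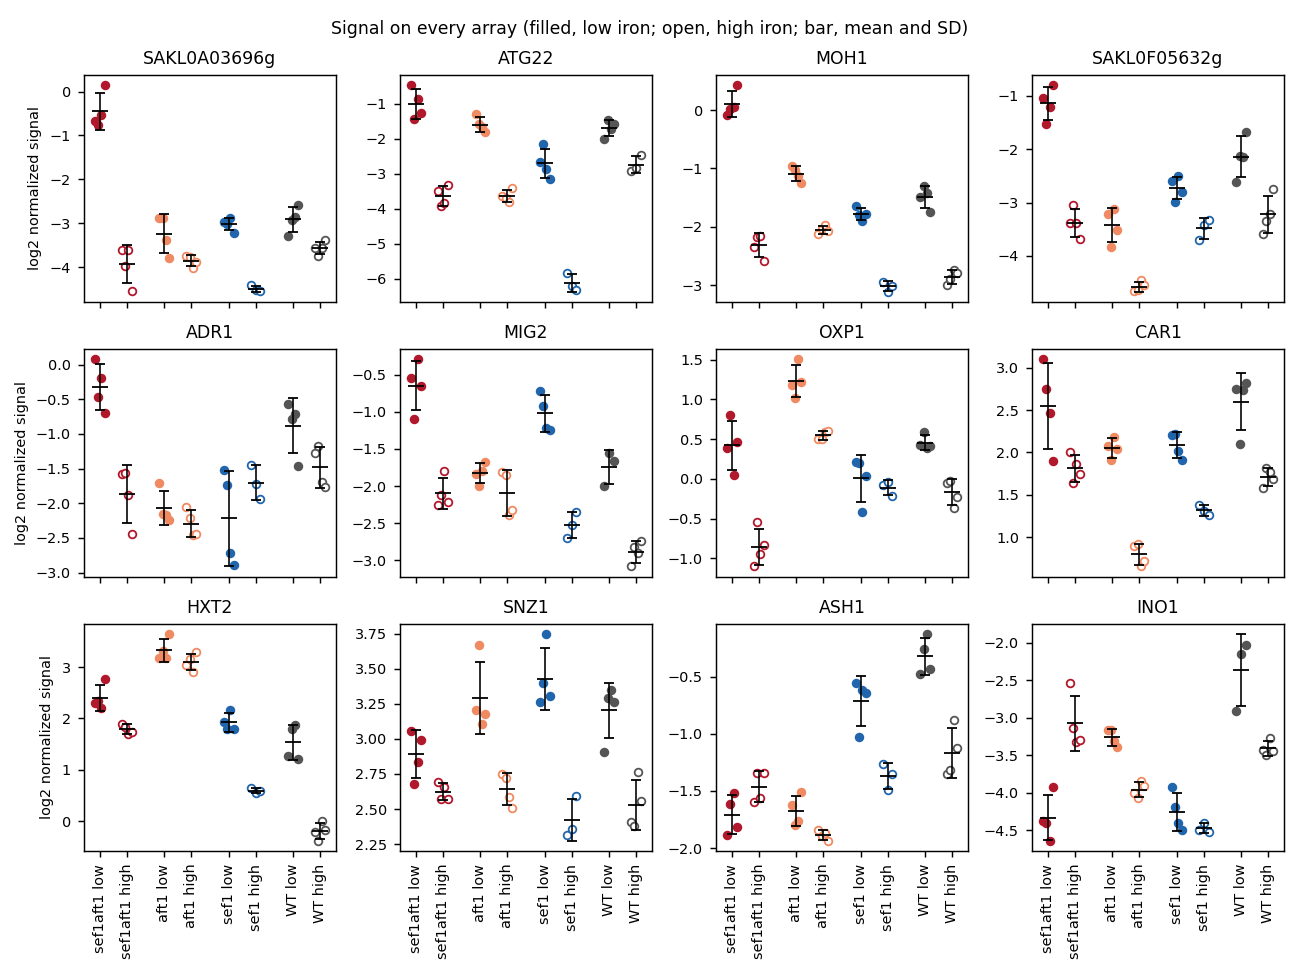
Level (log2 normalised signal) of 12 of the 52 genes on every array of sef1aft1, aft1, sef1 and WT, low iron left of high iron, with the mean and SD of each group. In sef1aft1 the low-iron arrays of SAKL0A03696g lie between -0.77 and 0.15, and INO1 is the only gene shown whose low-iron arrays all lie below its high-iron arrays there.

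Genes of nitrogen and amino acid breakdown were OXP1, PUT3, ARO9 and CAR1. In S. cerevisiae, Oxp1 is 5-oxoprolinase, which returns oxoproline to glutamate, Put3 activates genes for proline use, Aro9 is an aromatic aminotransferase and Car1 is arginase. OXP1 read 0.39, 0.8, 0.042 and 0.46 at low iron in sef1aft1, against -1.1, -0.55, -0.95 and -0.84 at high iron. On the sef1 arrays it stood at 0.21, 0.2, -0.42 and 0.037, against -0.076, -0.045 and -0.22, with the groups overlapping. It rose by 1.28 ± 0.14 in sef1aft1 and changed by 0.12 ± 0.15 in sef1, not called (difference 1.16 ± 0.20, limma adjusted p = 9.78e-05). At high iron OXP1 was lower in sef1aft1 than in sef1 by 0.74 (adjusted p = 0.000407), the only member lower there, and at low iron the difference of 0.42 was under the required fold. The aft1 arrays gave 1.17, 1.01, 1.5 and 1.22, against 0.5, 0.5, 0.59 and 0.61, and in WT 0.43, 0.59, 0.39 and 0.41, against -0.055, -0.023, -0.37 and -0.23.

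PUT3 rose by 1.26 ± 0.13 in sef1aft1, reading 0.0068, 0.12, -0.011 and 0.16 at low iron, against -1.09, -1.09, -1.16 and -1.44 at high iron. Its level in sef1 was -0.33, -0.3, -0.54 and -0.86, against -1.05, -1.06 and -0.75, overlapping, and its change of 0.44 ± 0.14 was under the required fold (difference 0.82 ± 0.19, limma adjusted p = 0.00218). ARO9 rose in sef1 and not in sef1aft1. It read 1.01, 0.98, 0.86 and 0.75 at low iron in sef1aft1, against 0.46, 0.48, 0.66 and 0.66 at high iron, and in sef1 1.74, 1.75, 1.79 and 1.85, against 0.74, 0.88 and 0.68. No groups overlapped, and the change was 0.34 ± 0.09 in sef1aft1, under the required fold, and 1.01 ± 0.10 in sef1 (difference -0.68 ± 0.13, adjusted p = 0.00035, a call lost on the other probe). CAR1 read 3.1, 2.75, 2.47 and 1.9 at low iron in sef1aft1, against 2.01, 1.63, 1.87 and 1.74 at high iron, with 1 low-iron array among the high-iron ones. It rose by 0.74 ± 0.16 in sef1aft1 and by 0.77 ± 0.18 in sef1. The CAR1 call in sef1aft1 was lost without low-iron replicate 1 (0.56). The names ATG22, CAR1, CRG1 and OAF1 each stand for more than one L. kluyveri gene, and the members were matched by systematic name.

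Of the members listed by name under stationary phase and vitamin B6, MOH1, ISF1 and SPG5 rose in both strains and SNZ1 in sef1. MOH1 and SPG5 are known in S. cerevisiae from stationary phase, and Snz1 takes part in making vitamin B6. MOH1 read -0.075, 0.018, 0.049 and 0.43 at low iron in sef1aft1, against -2.35, -2.18, -2.15 and -2.59 at high iron. The sef1 arrays gave -1.65, -1.79, -1.9 and -1.78, against -2.94, -3.11 and -3.01. In aft1 it read -0.95, -1.03, -1.13 and -1.24, against -2.12, -2.05, -1.97 and -2.07, and in WT -1.49, -1.3, -1.42 and -1.75, against -3.0, -2.9, -2.73 and -2.79. All 4 strains were split without overlap. The rise was 2.42 ± 0.11 in sef1aft1 (5.37-fold) and 1.24 ± 0.12 in sef1, and differed by 1.18 ± 0.16 (limma adjusted p = 2.97e-06). ISF1 rose by 1.34 ± 0.09 in sef1aft1 and 0.64 ± 0.10 in sef1 (difference 0.7 ± 0.13, adjusted p = 0.00023). SPG5 rose by 0.71 ± 0.09 and 0.68 ± 0.09, with a difference of 0.030 ± 0.13 that was not called.

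SNZ1 and SAKL0E03146g, its neighbour in the systematic order with no gene between, both rose in sef1 and were not called in sef1aft1. SNZ1 read 3.06, 2.68, 2.84 and 2.99 at low iron in sef1aft1, against 2.69, 2.57, 2.66 and 2.57 at high iron. In sef1 it read 3.26, 3.4, 3.75 and 3.3, against 2.32, 2.36 and 2.59. The sef1 groups were apart and those of sef1aft1 overlapped. SNZ1 changed by 0.27 ± 0.12 in sef1aft1 and rose by 1.01 ± 0.13 in sef1 (difference -0.74 ± 0.18, limma adjusted p = 0.00325). SAKL0E03146g read -1.01, -1.62, -1.08 and -1.28 at low iron in sef1aft1, against -1.24, -1.68, -1.45 and -1.45 at high iron, and in sef1 -0.58, -0.58, -0.5 and -0.7, against -1.82, -1.72 and -1.57, apart in sef1 and overlapping in sef1aft1. The aft1 arrays gave -0.43, -0.12, -0.62 and -0.92, against -0.82, -0.79 and -1.05 on 3 arrays, and the WT arrays -0.91, -0.48, -0.32 and -0.71, against -1.42, -1.47, -0.91 and -1.4. It changed by 0.21 ± 0.15 in sef1aft1 and rose by 1.11 ± 0.16 in sef1 (difference -0.9 ± 0.22, adjusted p = 0.00368).

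ATG22 had the largest change of all members in sef1. In S. cerevisiae, Atg22 exports amino acids from the vacuole after autophagy. It read -0.46, -1.44, -0.88 and -1.26 at low iron in sef1aft1, against -3.5, -3.91, -3.83 and -3.3 at high iron. On the sef1 arrays it stood at -2.66, -2.15, -2.85 and -3.14, against -5.82, -6.2 and -6.3. On the aft1 arrays it stood at -1.3, -1.59, -1.67 and -1.81, against -3.64, -3.69, -3.81 and -3.41, and in WT -2.0, -1.46, -1.73 and -1.57, against -2.92, -2.84 and -2.47 on 3 arrays. The high-iron level of sef1 was the lowest of the 4 strains and no strain overlapped. The rise was 2.63 ± 0.19 in sef1aft1 (6.18-fold) and 3.41 ± 0.21 in sef1. Their difference of -0.78 ± 0.28 (limma adjusted p = 0.0426) lost its call without any 1 of 8 of the 15 arrays (range -0.96 to -0.60). It was also not called on the other probe (-0.34, adjusted p = 0.473), after quantile normalization (-0.29, adjusted p = 0.475), after normexp background correction (-0.52, adjusted p = 0.148) or in a fit of only the arrays compared (adjusted p = 0.0955). A second gene with the same ortholog name is no member, and its changes were 0.35 in sef1aft1 and 0.18 in sef1.

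Among the membrane and lipid genes, MRH1 and YMR210W rose in both strains, AUS1 in sef1aft1 and OAF1 in sef1, and INO1 fell in sef1aft1. By their S. cerevisiae orthologs, MRH1 encodes a plasma membrane protein, YMR210W a putative acyltransferase, AUS1 a sterol uptake transporter, OAF1 an activator of genes for fatty acid use, and INO1 the enzyme that makes inositol phosphate, a precursor of membrane lipids. MRH1 read 4.27, 4.56, 4.73 and 4.87 at low iron in sef1aft1, against 3.17, 3.38, 3.34 and 2.35 at high iron, and in sef1 3.95, 4.06 and 4.62 on 3 arrays, against 2.93, 2.77 and 3.04. Its level in aft1 was 2.54, 2.51, 2.57 and 2.46, against 1.85, 2.0, 2.0 and 1.75, and in WT 3.87, 4.26, 4.28 and 3.89, against 2.78, 3.13, 3.08 and 3.16. No strain overlapped, and MRH1 rose by 1.55 ± 0.17 in sef1aft1 and 1.29 ± 0.20 in sef1. YMR210W rose by 1.25 ± 0.13 in sef1aft1 and 1.07 ± 0.14 in sef1. AUS1 rose by 0.63 ± 0.10 in sef1aft1, a call lost without low-iron replicate 4 (0.57), and its 0.48 ± 0.11 in sef1 was under the required fold. OAF1 changed by 0.19 ± 0.16 in sef1aft1 and rose by 0.9 ± 0.17 in sef1 (difference -0.71 ± 0.23, limma adjusted p = 0.0248). That difference lost its call without sef1 high-iron replicate 1 or sef1aft1 high-iron replicate 3 (range over all arrays -0.84 to -0.52), and after quantile normalization (-0.57). The other genes with the ortholog name OAF1, none of them a member, changed by -0.25, 0.40 and 0.40 in sef1aft1. In sef1 they changed by -0.37, -0.19 and -0.56. All of these changes were under the required fold.

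INO1 read -4.38, -4.4, -4.64 and -3.92 at low iron in sef1aft1, against -2.54, -3.13, -3.33 and -3.29 at high iron, with all low-iron arrays below all high-iron arrays. Its level in sef1 was -3.93, -4.19, -4.41 and -4.5, against -4.5, -4.4 and -4.53, overlapping. The aft1 arrays gave -3.17, -3.17, -3.32 and -3.4, against -4.01, -4.07, -3.84 and -3.91, and in WT -2.91, -2.14 and -2.02 on 3 arrays, against -3.43, -3.5, -3.27 and -3.44, both with the low-iron arrays on top. The change was -1.26 ± 0.17 in sef1aft1 (limma adjusted p = 6.44e-07) and 0.22 ± 0.18 in sef1 (difference -1.48 ± 0.25, adjusted p = 6.26e-05). At high iron INO1 was higher in sef1aft1 than in sef1 by 1.4 (adjusted p = 1.51e-06), and at low iron the difference of -0.077 was not called.

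**Figure D3:**
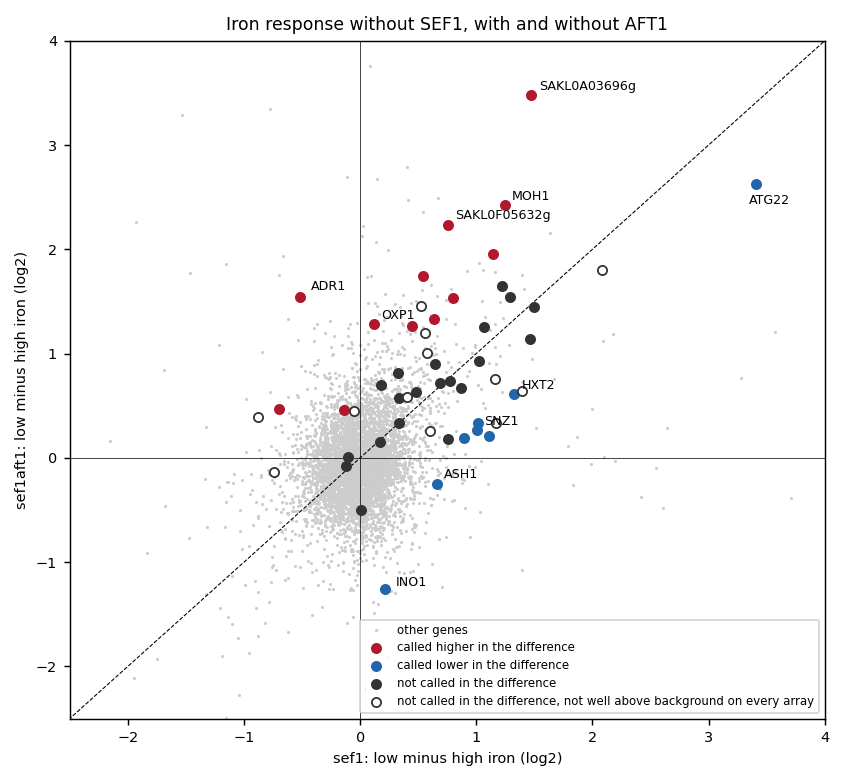
Change at low iron in sef1aft1 (vertical, log2) against that in sef1 (horizontal, log2) for the 52 genes and all other genes (grey, 14 outside the axes), with a line of equal changes. The 12 members called higher in the difference lie above the line, among them ADR1 at 1.54 in sef1aft1 and -0.52 in sef1, and the 8 called lower lie below it.

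Methyltransferases, regulators and other named genes made up the rest. TMT1, trans-aconitate methyltransferase in S. cerevisiae, rose by 0.93 ± 0.09 in sef1aft1 and 1.02 ± 0.10 in sef1, and CRG1, another methyltransferase, by 0.9 ± 0.10 and 0.65 ± 0.11, the second call lost without sef1 high-iron replicate 1 (0.58). LEE1, a zinc finger protein of unknown function, rose by 1.53 ± 0.13 in sef1aft1 and 0.8 ± 0.14 in sef1 (difference 0.73 ± 0.18, limma adjusted p = 0.00397). YLR312C, of unknown function, read -0.28, -0.75, -1.02 and -0.19 at low iron in sef1aft1, against -2.18, -2.29, -2.45 and -3.14 at high iron, and in sef1 -2.44, -2.46, -2.34 and -2.95, against -3.64, -3.87 and -3.55. In aft1 it read -1.58, -2.2, -1.93 and -2.2, against -2.93, -2.87, -2.95 and -2.98, and in WT -2.11, -2.44, -2.6 and -2.96, against -3.82, -3.5, -3.71 and -4.17. No strain overlapped, and YLR312C rose by 1.96 ± 0.20 in sef1aft1 and 1.14 ± 0.21 in sef1. Its difference of 0.82 ± 0.29 (adjusted p = 0.0387) lost its call without any 1 of 7 of the 15 arrays (range 0.61 to 0.97) and with arrays paired by replicate number as a block (0.68, adjusted p = 0.0641), and in a fit of only the arrays compared (adjusted p = 0.0678).

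TDP1, a DNA repair phosphodiesterase, rose by 0.7 ± 0.15 in sef1aft1 and changed by 0.18 ± 0.16 in sef1, not called. FYV10, a subunit of a ubiquitin ligase in S. cerevisiae, changed by 0.46 ± 0.12 in sef1aft1 and -0.14 ± 0.13 in sef1, neither called. The FYV10 difference of 0.6 ± 0.18 (limma adjusted p = 0.0121) was called and lost its call without any 1 of 5 of the 15 arrays (range 0.47 to 0.72) and, under the required fold, with the replicate block (0.47) and after normexp (0.57). YOR020W-A changed by 0.34 ± 0.08 in sef1aft1 and 0.33 ± 0.09 in sef1, and CIR1, a putative electron transfer flavoprotein subunit, by 0.15 ± 0.10 and 0.17 ± 0.11, none of them called.

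ASH1 and RAD61 had lower means at low than at high iron in sef1aft1, without a call. Ash1 represses mating-type switching in S. cerevisiae daughter cells, and Rad61 acts on the cohesin complex that holds sister chromatids together. ASH1 read -1.89, -1.62, -1.51 and -1.81 at low iron in sef1aft1, against -1.6, -1.34, -1.56 and -1.35 at high iron, overlapping. The sef1 arrays gave -0.55, -1.03, -0.62 and -0.64, against -1.26, -1.49 and -1.36, apart. On the aft1 arrays it stood at -1.63, -1.8, -1.76 and -1.51, against -1.84, -1.9, -1.87 and -1.94, and in WT -0.48, -0.26, -0.13 and -0.43, against -1.35, -1.32, -0.88 and -1.12. It changed by -0.25 ± 0.11 in sef1aft1 and rose by 0.66 ± 0.12 in sef1 (difference -0.91 ± 0.17, limma adjusted p = 0.000176). Its rise in sef1 was under the required fold after normexp (0.56).

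RAD61 read -4.61, -4.54, -4.78 and -4.26 at low iron in sef1aft1, against -4.01, -3.91, -4.15 and -4.12 at high iron, and in sef1 -3.55, -3.78, -3.95 and -3.63, against -3.99, -3.68 and -3.52. The sef1aft1 groups were apart, with low iron below, and those of sef1 overlapped. Its change of -0.5 ± 0.13 in sef1aft1 (limma adjusted p = 0.00305) was under the required fold, and past it without low-iron replicate 4 (-0.60). Its level in aft1 was -3.12, -3.7, -3.13 and -3.08, against -3.71, -3.82, -3.9 and -3.94, and in WT -3.87, -3.48 and -3.85 on 3 arrays, against -4.2, -4.37, -4.04 and -4.03.

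SAKL0F16500g, which lies next to PUT3 in the systematic order, was higher at low iron without overlap in every strain. It read -0.91, -0.71, -0.66 and -1.21 at low iron in sef1aft1, against -2.21, -2.66, -2.69 and -2.52 at high iron, and in sef1 -2.29, -2.28, -2.2 and -2.21, against -3.47, -3.46 and -3.47. The aft1 arrays gave -1.42, -1.43, -1.55 and -1.67, against -3.17, -3.21, -3.0 and -2.93, and in WT -2.09, -2.41, -2.19 and -2.28, against -3.6, -3.72, -3.48 and -3.83. It rose by 1.65 ± 0.11 in sef1aft1 and 1.22 ± 0.12 in sef1, and the difference was not called (limma adjusted p = 0.0535). OXP1 is separated from it by 1 gene, and SAKL0F16324g from OXP1 by 3. SAKL0F16324g rose by 1.14 ± 0.09 in sef1aft1 and 1.46 ± 0.10 in sef1. Other members close to each other were HXT2 and SAKL0G19888g, and LEE1 and SAKL0H10890g, each with 1 gene between, and SAKL0E14850g and SAKL0E14960g, with 4 between. Chromosomes F and H held 12 members each, 1.78% and 1.15% of their genes. E held 11 (1.77%), G 7 (0.85%), D 4 (0.68%), A 3 (0.67%), B 2 (0.39%) and C 1 (0.17%).

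Of the other unnamed genes, SAKL0E14960g rose by 0.67 ± 0.10 in sef1aft1, a call lost on the other probe (0.57), and by 0.87 ± 0.11 in sef1. SAKL0E14850g rose by 0.81 ± 0.14 in sef1aft1 and changed by 0.32 ± 0.15 in sef1, not called. SAKL0G13354g changed by 0.18 ± 0.16 in sef1aft1, not called, and rose by 0.76 ± 0.17 in sef1, a call lost on the other probe (0.42, limma adjusted p = 0.0805). SAKL0F00902g changed by 0.57 ± 0.32 in sef1aft1 and 0.33 ± 0.34 in sef1, and SAKL0E09086g by 0.010 ± 0.15 and -0.1 ± 0.16, none called. 

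SAKL0H10890g read -1.66, -2.02, -2.04 and -2.64 at low iron in sef1aft1, against -1.7, -2.04, -1.95 and -2.35 at high iron, overlapping. In sef1 it read -2.05, -2.28, -2.5 and -2.64, against -2.41, -2.21 and -2.11, in aft1 -2.28, -2.51, -2.32 and -2.73, against -2.83, -2.74, -2.76 and -2.97, and in WT -1.83, -1.89, -1.36 and -1.74, against -2.11, -3.11, -1.98 and -2.12. Its changes of -0.076 ± 0.20 in sef1aft1 and -0.12 ± 0.21 in sef1 were not called. SAKL0H02838g read -4.38, -4.38, -4.71 and -4.42 at low iron in sef1aft1, against -4.87, -4.88, -4.91 and -5.11 at high iron, and in sef1 -5.4, -5.71, -5.77 and -5.36, against -4.9, -4.78 and -4.91. The low-iron arrays lay above in sef1aft1 and below in sef1. The aft1 arrays gave -4.27, -4.57, -4.27 and -3.36, against -4.77, -4.78, -4.6 and -4.92, and the WT arrays -5.79 and -5.5 on the 2 arrays left, against -5.47, -5.35, -5.38 and -5.38, with low iron below. Its change was 0.47 ± 0.16 in sef1aft1, under the required fold, and -0.7 ± 0.17 in sef1 (limma adjusted p = 0.00476), with a difference of 1.17 ± 0.23 (adjusted p = 0.00042). With marked spots kept, the sef1 change (adjusted p = 0.164) and the difference (adjusted p = 0.056) were not called. The sef1 change was also not called after normexp (-0.46) or on the other probe (-0.57).

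Marked spots also touched the choice of genes. The scanner software marked 16 of the 1612 member spots as non-uniform, in 13 members, and these were left out of the levels given here, while the authors' table holds values for them. SAKL0H02838g had marked spots on WT low-iron replicates 2 and 3. Without them its WT change was -0.25. SAKL0G13354g (0.33), RAD61 (0.42) and SAKL0G19888g (0.47) also missed the WT threshold without their marked spots. On the scanner values, scaled to the 75th percentile, the rule found 49 genes, 48 of them among the 52. Of the 49, 30 were called higher in sef1aft1 and 25 in sef1. After quantile normalization of the scanner values the rule found 36 genes, 32 of them among the 52. When the 16 WT and aft1 arrays were left out in turn, 34 of the 52 met the rule each time and 18 missed it at least once.

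In 12 members the probe was not well above background on every array. These are SAKL0G09350g, SAKL0F09372g, SAKL0E05280g, SAKL0H23122g, YLL058W, SAKL0C11088g, SAKL0D15070g, SAKL0F11066g, SAKL0H21780g, SAKL0G19888g, SAKL0B12386g and SAKL0E14608g. They make up 23.1% of the members, while 1.95% of all genes (103) were of this kind, and were well above background on between 0 and 13 of the 31 arrays. The negative control spots were higher at low iron too. They averaged -9.49 ± 0.45 at low iron and -10.57 ± 0.48 at high iron in sef1aft1, -9.20 ± 0.47 and -10.69 ± 0.62 in aft1, -9.65 ± 0.34 and -10.73 ± 0.16 in sef1, and -9.01 ± 0.57 and -11.10 ± 0.38 in WT (SD, n = 4, and n = 3 for sef1 at high iron). Their low-minus-high differences were 1.08 in sef1aft1, 1.49 in aft1, 1.08 in sef1 and 2.09 in WT. The median changes of the 12 genes were 0.61, 0.96, 0.57 and 1.38 in the same strains, each below that of the controls. Of the 23 genes with a mean level below -8, 12 were members, and of the 9 genes below -9 all 9 were. The part of the shift of the controls in the choice of the dim members was not tested.

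YLL058W, related to enzymes of sulfur amino acid synthesis, was well above background on 0 arrays, so its calls in sef1aft1 (limma adjusted p = 0.0497) and sef1 (adjusted p = 0.0176) are given with no fold. They were lost without any 1 of 6 of the 8 sef1aft1 arrays and of 3 of the 7 sef1 arrays, and in both strains after quantile normalization (adjusted p = 0.118 in sef1aft1 and 0.11 in sef1) and on the other probe (0.136 and 0.104). SAKL0G09350g was well above background on 1 array only, of WT at low iron. It read -9.43, -9.11, -8.1 and -8.69 at low iron in sef1aft1, against -10.56, -10.47, -11.29 and -10.23 at high iron, and in sef1 -9.18, -9.81, -8.54 and -8.09, against -10.93, -11.17 and -10.85. In aft1 it read -8.86, -8.94, -9.88 and -9.69, against -11.37, -9.2, -11.21 and -9.93, and in WT -9.0, -8.88, -5.69 and -10.03, against -11.97, -11.06, -11.42 and -11.57. It was called in sef1aft1 (adjusted p = 0.00972) and sef1 (adjusted p = 0.0184), with no fold given because no array of either strain was well above background. Its call in sef1aft1 was lost after quantile normalization (adjusted p = 0.223) and normexp (adjusted p = 0.149). Its call in sef1 was lost under both (adjusted p = 0.118 and 0.544), on the other probe (adjusted p = 0.197) and without any 1 of 4 of the 7 arrays. SAKL0E05280g was well above background on 1 low-iron and no high-iron array of sef1aft1. It was called there (adjusted p = 0.0328), with no fold given because its low-iron mean was itself near background. That call was lost without any 1 of 4 of the 8 arrays, after normexp (adjusted p = 0.784) and on the other probe (adjusted p = 0.941).

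SAKL0F09372g was measured better in sef1aft1, on 4 low-iron and 3 high-iron arrays. There it read -6.44, -6.89, -6.61 and -6.01 at low iron, against -8.1, -7.75, -7.96 and -7.98 at high iron, apart, and it rose by 1.46 ± 0.45 (limma adjusted p = 0.00982). SAKL0D15070g was well above background on 3 low-iron and 4 high-iron arrays of sef1aft1 and on none of sef1. It read -6.83, -7.2, -7.52 and -6.14 at low iron in sef1aft1, against -7.17, -8.12, -7.78 and -6.95 at high iron, and its change was not called. SAKL0E14608g read -9.48, -9.76, -9.42 and -9.04 at low iron in sef1aft1, against -8.92, -9.36, -9.38 and -9.51 at high iron, and in sef1 -9.41, -9.65, -9.75 and -10.11, against -8.44, -9.67 and -8.85. On the aft1 arrays it stood at -9.05, -8.8, -9.98 and -9.44, against -9.52, -10.19, -9.05 and -9.93, and in WT -8.76, -8.51, -3.84 and -8.76, against -6.43, -9.95, -9.84 and -9.04, where 1 low-iron array stood far above the others. It and the remaining dim members were called in neither strain.

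Leaving these 12 genes out, 25 of the 40 other members were called higher in sef1aft1 and 24 in sef1, with median changes of 0.73 and 0.72. All 20 members called in the difference between the strains were among these 40.

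**Figure D4:**
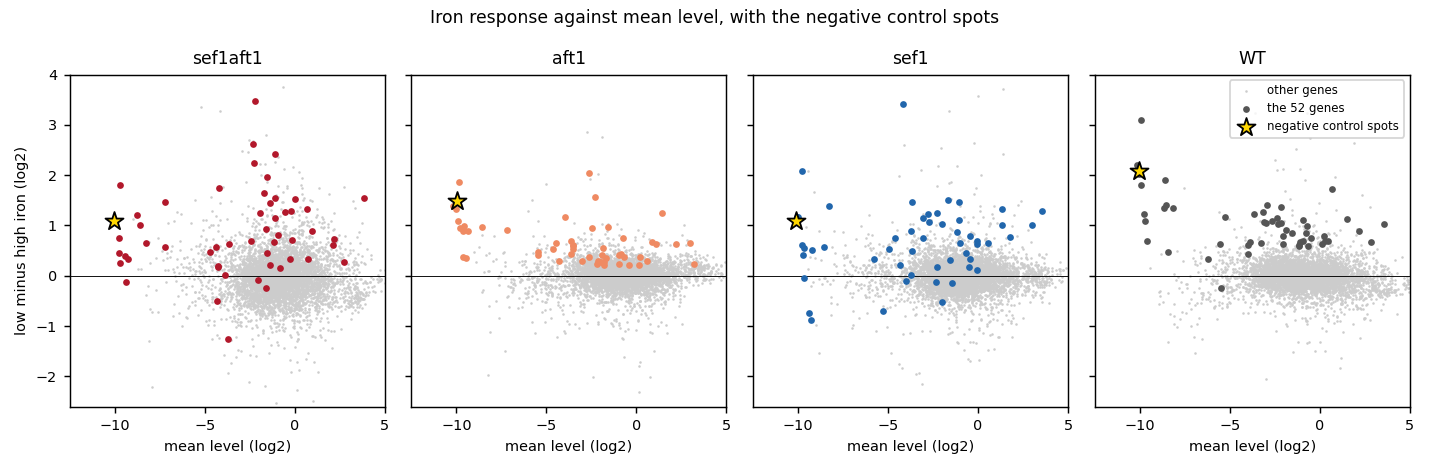
Change at low iron (log2) against mean level (log2) for the 52 genes, all other genes (grey) and the mean of the negative control spots (star), in sef1aft1, aft1, sef1 and WT, with between 1 and 9 genes a panel outside the range. The star lies at a change of 1.08 in sef1aft1, 1.49 in aft1, 1.08 in sef1 and 2.09 in WT, at the dim end where the 12 dim members lie.

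The second probe of each gene gave another reading of the same arrays. All 52 members had one, and in 51 its change in sef1aft1 had the sign of the chosen probe, with a median distance of 0.0992 between the values. Counted on the other probes, 28 members were called higher in sef1aft1 and 27 in sef1, 25 and 23 of them also called on the chosen probe. The exception was SAKL0G09350g, whose chosen probe was well above background on 0 sef1aft1 arrays. For ATG22 the other probe gave 4.42 and the chosen one 2.63 in sef1aft1. In 32 of the 52 the other probe met the rule as well.

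**Figure D5:**
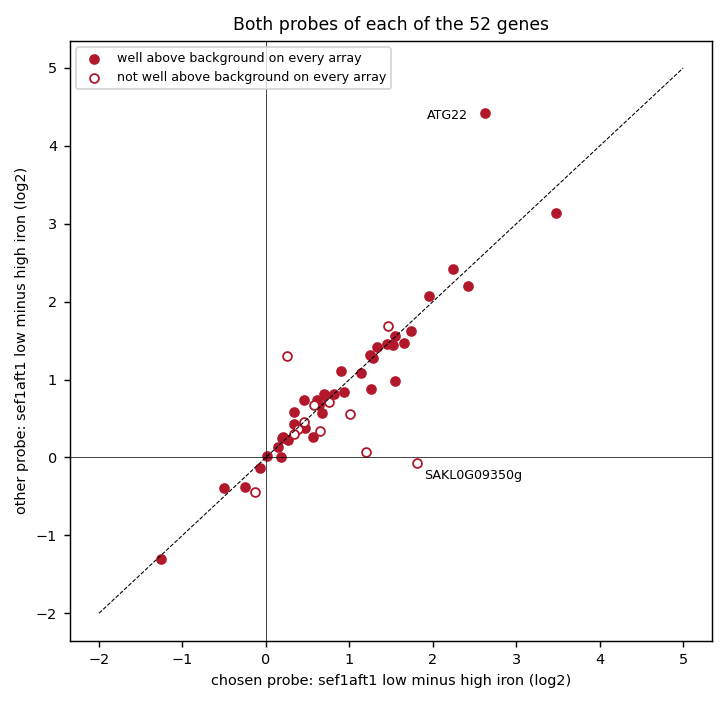
Change at low iron in sef1aft1 (log2) of the other probe against that of the chosen probe for each of the 52 genes, with a line of equality. ATG22 lies off the line at 4.42 on the other probe and 2.63 on the chosen one, and open points are genes not well above background on every array.

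The difference between the iron responses sets cells without SEF1 and AFT1 (sef1aft1) beside cells without SEF1 alone (sef1). The strains were single clones on separate slides. A row effect that differed between the slides, or a difference between the clones, cannot be told apart from the loss of AFT1. It was called for 20 members, higher for 12 and lower for 8, beside 6.61% and 8.9% of all genes. The 12 were ADR1, SAKL0A03696g, SAKL0F05632g, SAKL0D05104g, MOH1, SAKL0H02838g, OXP1, PUT3, YLR312C, LEE1, ISF1 and FYV10. The 8 were INO1, ASH1, SAKL0E03146g, ATG22, SNZ1, HXT2, OAF1 and ARO9. Regulators and unnamed genes stood on both sides, as did genes of sugar use and of amino acid breakdown.

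In level, 22 members differed between sef1aft1 and sef1 at low iron, 17 higher and 5 lower in sef1aft1 (12.6% and 7.44% of all genes). At high iron 13 differed, 12 higher and 1 lower (8.86% and 2.35%). The 5 lower at low iron were ASH1 (-1.0), ARO9 (-0.88), RAD61 (-0.82), OAF1 (-0.82) and SAKL0E03146g (-0.66). ATG22, MOH1, YLR312C, YMR210W, SAKL0F16500g, SAKL0F00902g, SAKL0D15070g and SAKL0F09372g were higher in sef1aft1 at both. Of the members higher in sef1aft1, 3 at low iron and 3 at high iron were dim, SAKL0D15070g and SAKL0F09372g at both. The 103 genes not well above background on every array had median differences of 0.69 at low iron and 0.65 at high iron. Over all genes the medians were 0.050 and 0.097. Strain and slide cannot be told apart in these comparisons.

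Genes of the same pathways that are not members were taken from lists of S. cerevisiae names, matched in part only because ortholog names were at hand for 2020 of the 5283 genes. Their counts stand beside 7.02% of all genes called higher and 7.5% called lower in sef1aft1, and 3.2% and 2.56% in sef1. Of 10 such genes of glucose sensing and transport, 2 rose and 1 fell in sef1aft1, and 1 rose and 2 fell in sef1. HXT3, a glucose transporter gene, rose by 1.5 in sef1aft1 and by 1.05 in sef1, and one of the 2 genes named SUC2 (invertase) fell by 2.65 in sef1aft1 and by 1.54 in sef1. Of 17 genes of nitrogen and amino acid breakdown, 3 rose and 3 fell in sef1aft1, and 2 rose and 3 fell in sef1. Those that fell in sef1aft1 were DUR1,2 (-2.54), of urea use, and PUT1 (-1.90) and PUT4 (-0.73), of proline use, where the member PUT3 rose. Of 5 stationary-phase and vitamin B6 genes, 2 rose in sef1aft1 (SPG1 and HSP26) and 1 in sef1 (SPG1), and 0 fell.

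Of 11 genes of lipid, sterol and peroxisome, 4 rose in sef1aft1 (PEX18, POX1, FOX2 and POT1) and 1 in sef1 (PEX18), and 0 fell. PEX18, a peroxisomal import gene, rose by 2.16 in sef1aft1 and 1.63 in sef1. Of 12 autophagy and vacuole genes, 2 rose in sef1aft1 (ATG14 and AMS1), and 0 rose and 1 fell (ATG10) in sef1. Of 8 genes of sulfur amino acids, 0 rose in either strain, and 1 fell in sef1aft1 and 2 in sef1. Of 12 zinc and copper genes, 5 (ZRT1, CTR1, CTR2, CTR3 and a CCC2) belong to the iron-uptake-related set that was left out and could not be members, and 4 of these rose in sef1aft1 and 4 in sef1. Of the other 7, 3 rose in sef1aft1 (ZAP1, IZH1 and another CCC2) and 0 in sef1.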

How the data were processed

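The authors hybridised fluorescently labelled cDNA to custom 8x15K arrays, scanned them with Agilent Feature Extraction 10.5.1.1 and scaled each array to its 75th percentile. Their deposited log2 table, with column medians between -1.33 and -1.08, chose the genes. The deposited processed signal intensities were used for all tests, as log2 minus the log2 75th percentile of each array. The authors' table and these values differed by a median of at most 0.0176 on every array. Non-uniform spots (0 to 370 an array) were left out, no spot was saturated, and the 75th percentile ran between 10420 and 23266. The number of arrays limits the precision.

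A single limma 3.58.1 model (R 4.3.3) was fitted to the 8 groups over all 31 arrays, with Benjamini-Hochberg adjustment over all genes. The fit was also run on simulated arrays with independent noise and known changes. These held no row effect, background shift or correlation between arrays, so they do not test the calls under such effects. Python 3.11.15, numpy 2.4.6, pandas 2.3.3 and matplotlib 3.10.9 did the rest. The sample titles number the arrays as repeats, and the methods of the study describe biological replicates of each strain and condition. The titles name no cultures, so p-values measure the spread between these arrays, which may in part be technical.

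The genes described and the pathway lists were chosen with earlier results of these data known. Values on every array were given for the 10 members with the largest and the 5 with the smallest change in sef1aft1 and up to 10 called in the difference of iron response, plus the 3 genes on each side of each threshold by value only. Values of a few other members were added after they were seen.

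Same-numbered low-iron and high-iron arrays deviated together in sef1aft1 (r = 0.252 to 0.521 over genes in the 4 pairs), and each pair shared a column of its slide. Alternatives covered normalization, background correction, dim and marked spots, the other probe, thresholds, the block, the methods' t-test and each array left out.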

Additional observations from a re-analysis of the deposited data

Results flagged for a closer look

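Of the 52 genes, 18 were examined array by array (those with the largest or smallest change in sef1aft1 or the largest differences between the strains). In 6 of their 118 groups of 4 arrays, 1 array lay far from the other 3, and chance alone gives about 1 in 20. ADR1 was at -1.71 on 1 aft1 low-iron array, the next at -2.15. SAKL0H10890g was at -3.11 on 1 WT high-iron array, the next at -2.12. SAKL0E14608g was at -3.84 on 1 WT low-iron array, the next at -8.51. RAD61 was at -3.70 on 1 aft1 low-iron array, the next at -3.13. SAKL0H02838g was at -4.71 on 1 sef1aft1 low-iron array, the next at -4.42. SAKL0E03146g was at -0.91 on 1 WT high-iron array, the next at -1.40.

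The change at low iron differed between sef1aft1 and sef1 by the limma test of the difference for 20 genes. It was larger in sef1aft1 for ADR1 (2.06), SAKL0A03696g (2.00), SAKL0F05632g (1.48), SAKL0D05104g (1.20), MOH1 (1.18), SAKL0H02838g (1.17), OXP1 (1.16), PUT3 (0.82), YLR312C (0.82), LEE1 (0.73), ISF1 (0.70) and FYV10 (0.60). It was smaller in sef1aft1 for INO1 (-1.48), ASH1 (-0.91), SAKL0E03146g (-0.90), ATG22 (-0.78), SNZ1 (-0.74), HXT2 (-0.72), OAF1 (-0.71) and ARO9 (-0.68).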

How the results depend on the processing

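With a fold of at least 2, 19 members were called higher in sef1aft1, 16 in sef1, 8 in the difference, 14 between the strains at low iron and 8 at high iron, because fewer genes pass a larger fold. By adjusted p alone, 22 differed at high iron. Of the medians, that of sef1aft1 was 0.65 after normexp and 0.75 over the genes chosen on scanner values, and that of sef1 was 0.60 after normexp, 0.91 on the other probes and 0.72 over the members well above background on every array. After quantile normalization of the scanner values the rule found 36 genes, of which 32 were members, so the choice of genes depended on the normalization. The rule found 87 genes on the other probes, 82 with an aft1 threshold of 0 and 26 with that of WT applied to aft1. Counting calls and medians over the genes chosen on scanner values, or over the members well above background alone, was added after seeing the data. The cause of these shifts was not tested beyond the construction of each alternative.

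Leaving out 1 array at a time gave 27 to 28 members higher in sef1aft1, 22 to 26 in sef1, 17 to 22 in the difference, 21 to 24 at low iron and 11 to 13 at high iron. The medians ran between 0.67 and 0.80 in sef1aft1 and between 0.64 and 0.71 in sef1, and the rule found 50 to 62 genes. With the replicate block, 30 were called higher in sef1aft1, 27 in sef1, 19 in the difference, 22 at low iron and 14 at high iron, and YLR312C and FYV10 lost their call in the difference. No other gene called in sef1aft1, in sef1 or in the difference lost its call under the block. The correlations of same-numbered arrays in sef1 were -0.0898, 0.239 and 0.0976, so the numbers do not show a pairing there.

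The methods' t-test was not run for the difference, having 2 groups only. After Benjamini-Hochberg adjustment it called 26 in sef1aft1, 20 in sef1, 21 at low iron and 11 at high iron. The calls it lost were those of SAKL0E05280g, YLL058W and CAR1 in sef1aft1, and of SAKL0F05632g, SAKL0G09350g, MRH1, YLL058W, OAF1, SAKL0G13354g and ASH1 in sef1. In direction, SAKL0G09350g, near background, turned to -0.073 in sef1aft1 on its other probe, and after normexp YLL058W turned to -0.26 in sef1aft1 and -0.033 in sef1, and SAKL0E14608g to 0.32 in sef1aft1. SAKL0H10890g turned to 0.027 in sef1aft1 without high-iron replicate 1 and 0.11 without low-iron replicate 4, with a range of -0.22 to 0.11 over the arrays left out. The cause was not tested. Signal near background limits the 12 dim members.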
